A study of Mus musculus with 12 samples.

Results

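The untreated wild-type duodenum was described here from 3 arrays of the 12 in the series, taken by their titles as the wild-type mice given vehicle alone. Each array held RNA of the duodenum of a male mouse that was 7 weeks old per the study's design and had received a 5 g/L solution of sodium carboxymethylcellulose by mouth once a day for 14 days, with no peptide. The other 9 arrays, used only for comparison, were 3 of wild-type mice given the short peptide IIAEK at 600 mg per kg body weight a day in the same vehicle, 3 of IAP knockout (Akp3-/-) mice given vehicle, and 3 of such knockout mice given the peptide. All groups had been fasted for 8 h before the duodenum was put into RNAlater. The sources used here name neither the strain nor the litters of the mice, and do not say how the duodenum was cut from its neighbours or how the knockout was made.

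The duodenum is the first segment of the small intestine, where stomach contents meet bile and pancreatic juice. Its villi are covered by enterocytes, which digest and absorb food across a brush border of microvilli. Paneth cells at the base of the crypts release antimicrobial defensins and lysozyme, and goblet cells release mucus. Brunner's glands under its mucosa, found only in this part of the bowel, release an alkaline mucus, and the pancreas lies in its curve.

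A level in the text is log2 of a probe's processed fluorescence minus log2 of the array's 75th percentile of that fluorescence, so a level of 0 is that percentile and a step of 1 is a doubling of light. A total of 24809 features had a probe well above background on all 3 arrays, of which 15087 were named genes and 9722 had only the file's identifier, and each gene stands under its brightest such probe. The 15087 are out of 22905 genes with a named probe, and counts of listed genes that passed stand against that share. Levels ran from -4.71 to 10.93 with a median of -0.10, the brightest 10% began at 4.05 and the brightest 1% at 7.81. Probes differ in how strongly they bind, so the ranking is one of probe brightness: for the 3983 genes with exactly 2 probes past the filter, the 2 readings of the same gene differed by a median of 2.23 and by 4.94 at the 90th percentile. Gaps between genes are therefore given beside these values and carry no test. The labels number the arrays 1 to 3. Their 75th percentiles of intensity were 465.8, 328.8 and 195.3, and 64.0%, 60.9% and 56.0% of probes were well above background. Arrays 1 and 2 lay on the same slide and array 3 on another, so that slide and animal cannot be told apart for array 3.

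The brightest named genes were led by antimicrobial peptides of Paneth cells. Of the 30 brightest, 8 were alpha-defensin genes, headed by Defa23 (10.05, 10.46 and 10.87 on arrays 1 to 3) and Defa24 (9.95, 10.39 and 10.92), followed by Defa38, Defa3, Defa2, Defa40, Defa29 and Defa42 between 9.97 and 9.50. These genes are near-identical copies of each other, so signal may be shared between their probes. Prap1, which encodes a secreted epithelial protein, had a level of 9.98 ± 0.29 (SD, n = 3), and Reg1, a secreted lectin-like protein, of 9.71 ± 0.39. The trefoil peptide gene Tff2, a product of gastric and Brunner's gland mucous cells, read 9.28, 9.68 and 9.98, and the gastrokine gene Gkn3 read 9.42, 9.52 and 9.80. Pigr, the receptor that carries IgA through the epithelium, read 9.25, 9.50 and 9.72. The iron-storage subunit gene Fth1 had a level of 9.44 ± 0.31. Just below the 30th gene, Milr1 at 9.35, stood Tpt1 at 9.31, Fabp1 at 9.31 and the actin gene Actb at 9.25. The highest feature of all, the transcript NR_003278 with 10.43, 10.84 and 11.51, was matched to no gene name here and carries only the file's identifier.

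For several of these genes the other probes gave a very different reading. Among the 30, 16 had a single probe and 14 had others. In 11 of the 14 at least 1 other probe lay over 4 log2 units lower, and in 2, Defa3 and Defa23, every other probe lay within 2. The probe that put Dcc, an axon guidance receptor gene, in this list read 9.50, 9.95 and 10.16, whereas the other 3 Dcc probes averaged -6.29, -6.50 and -6.73 and none was above background on any array. Slc10a1, the bile acid transporter gene of hepatocytes, read 9.50 by one probe and -6.61 by the other, again not above background on any array. The transcription factor gene Elk1 read 9.79 and -3.40, the Mediator subunit gene Med16 9.81 and -2.63, Ttc38 9.78, -1.86 and -6.08, and Ndor1, a reductase gene, 9.39 and -0.70. Gcm1, another transcription factor gene, had probes at 9.78, 9.58 and 3.63. Pigr itself read 9.49 and 3.31, and the glutaredoxin gene Glrx2 read 10.08 and 3.28. With the dimmest probe standing for each gene, Defa24, Kctd14, Prap1 and Defa38 came first, and 73 of the 100 brightest features were kept. Rhox8 and Zfp628, which stayed at 9.82 under both rules, have 1 probe each and so no second reading.

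**Figure D1:**
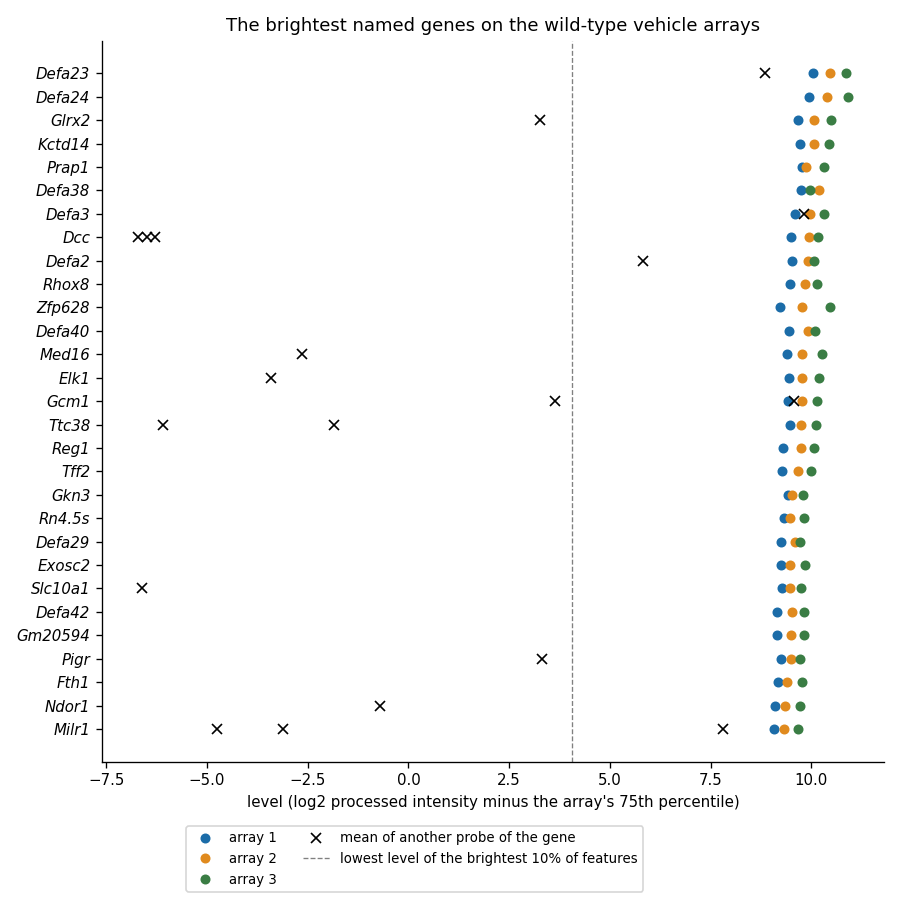
Of the 30 named genes with the highest mean level, 29 are drawn, from the brightest at the top. Coloured points give the level on each of the 3 wild-type vehicle arrays, black crosses the mean of each other probe of the same gene, and the dashed line the lowest level of the brightest 10% of features. Array 1 is the lowest of the 3 for all 29 genes, and crosses reach down to -6.73 for Dcc.

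Genes of protein synthesis and respiration were bright as whole groups and differed little between the arrays. All 44 genes of cytosolic ribosomal proteins that had a probe passed the filter and lay in the brightest 10%, with a median of 7.76 (all features: -0.10), led by Rps18 (9.02, 9.14 and 9.38), Rpl41 (9.04 ± 0.32) and Fau (8.92 ± 0.29). Of 42 genes of oxidative phosphorylation, 40 lay in the brightest 10%, with a median of 6.65. The cytochrome oxidase gene Cox6a1 read 8.85, 8.95 and 8.84, Cox8a had a level of 8.38, the ATP synthase gene Atp5o of 8.12 and the complex III gene Uqcrq of 8.10. The median SD over the 3 arrays was 0.13 among the ribosomal and 0.09 among the respiratory genes. It was 0.19 over all features and 0.15 over the brightest 10%. Of the 44 ribosomal genes 37 were lowest on array 1, as were 33.8% of all features and 93 of the 100 brightest. Endoplasmic reticulum chaperones followed, with Hspa5 at 6.77, Hsp90b1 at 6.75, Atf4, a stress-response transcription factor gene, at 6.40 and Pdia6 at 6.16, the brightest of 21 unfolded protein response genes (median 3.87).

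Enterocyte genes were the brightest of the absorptive lineage: 15 of 15 passed and 14 lay in the brightest 10%, with a median of 6.69. The exception was Slc15a1, the intestinal carrier of dipeptides and tripeptides, at -0.49, -0.53 and -1.30. Genes of fat absorption and chylomicron assembly, the packing of dietary fat into lipoproteins, had a median of 5.70 over 24 of 25 genes, 18 of them in the brightest 10%. The fatty acid binding protein genes Fabp1 (8.94, 9.13 and 9.86) and Fabp2 (8.73, 9.06 and 9.90) were close to each other on each array. Next came the apolipoprotein genes Apoa4 (8.23, 8.38 and 8.85) and Apoc2 (8.26), ahead of Apoc3 (7.41), Apoa1 (6.69) and Apob (6.78, 6.52 and 6.28), the structural protein of the chylomicron. Of these 24 genes 22 were highest on array 3, as were 41.5% of all features and 92 of the 100 brightest.

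The stretches before the transcription start of the bright enterocyte genes Fabp1 and Alpi are shown because both hold letters of sites for factors of intestinal transcription, and were picked after values were seen. They come from RefSeq, build GRCm38.p6, and give the 250 bases before the start, 5′ to 3′. Capitals mark matches on either strand to TATAAA, the core promoter box that positions the polymerase, GTTAAT (part of the site of the factor HNF1) and, in Alpi, CAAAGTCCA (site of the factor HNF4).
Fabp1 (chr6:71199629-71199878, plus strand): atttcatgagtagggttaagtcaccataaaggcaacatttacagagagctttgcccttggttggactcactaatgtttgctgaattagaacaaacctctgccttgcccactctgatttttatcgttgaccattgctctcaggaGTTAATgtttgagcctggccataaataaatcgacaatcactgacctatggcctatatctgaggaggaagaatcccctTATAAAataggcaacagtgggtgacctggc
Alpi (chr1:87101607-87101856, minus strand): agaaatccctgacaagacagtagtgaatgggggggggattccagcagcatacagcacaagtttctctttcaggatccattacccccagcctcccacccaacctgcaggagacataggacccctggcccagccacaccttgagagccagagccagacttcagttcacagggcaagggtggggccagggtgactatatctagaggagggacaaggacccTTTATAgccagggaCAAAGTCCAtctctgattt
In Fabp1 the TATA letters began at position -30 and GTTAAT at -107 from the start. In Alpi the TATA letters, which lie on the opposite strand, began at -33 and CAAAGTCCA at -19. Over windows of 300 bases (250 before and 50 after the start), TATAAA was found in 5 of 14 enterocyte promoters (35.7%) against 14.2% of 27025 promoters in the table, CAAAGTCCA in 1 of 14 (7.14% against 0.477%) and GTTAAT in 2 of 14 (14.3% against 7.20%). The CAAAGTCCA match among the 14 is that of Alpi. Of 29 ribosomal protein promoters, 1 held TATAAA (3.45%), 1 CAAAGTCCA (3.45%) and 3 GTTAAT (10.3%). Of 26 acinar promoters, 1 held CAAAGTCCA (3.85%) and 3 GTTAAT (11.5%). In the 250 bases before Fabp2, as bright as Fabp1, 0 matches were found to these 3 motifs or to AGATAA, the letters bound by GATA factors. AGATAA was found in 3 of 14 enterocyte promoters (21.4% against 11.4% of all) and in 8 of 26 acinar promoters (30.8%). A match is a description of letters, not of a bound factor.

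Intestinal alkaline phosphatases remove phosphate from lipids, nucleotides and bacterial endotoxin at the brush border, and Akp3 is the gene missing in the knockout groups. Alpi was the bright member, with 6.60, 6.72 and 7.16. Akp3 read 2.27, 2.04 and 1.70 by its brighter probe and 2.11, 2.05 and 1.20 by the other. Alppl2, the embryonic-type gene, read 0.78, 0.56 and 0.72. Alpl, the tissue-nonspecific gene, read -3.21, -3.28 and -2.83. The arrays did not overlap between any of these genes, and the gap of Alpi over Akp3 was 4.82, just under the 4.94 that separates the 2 probes of a gene at the 90th percentile. Brush border enzymes that split sugars spanned a wide range: sucrase-isomaltase, Sis, read 8.24, 8.27 and 8.89, lactase, Lct, 6.43, 6.69 and 5.88, trehalase, Treh, 4.80, 5.09 and 5.32, and maltase-glucoamylase, Mgam, 1.85, 1.59 and 1.19. The 12 brush border peptidases that passed had a median of 2.82 and included the aminopeptidase gene Anpep (5.63, 5.77 and 6.77), the enteropeptidase gene Tmprss15 (3.95), whose product activates trypsinogen, and the meprin gene Mep1b (3.79). Microvillus structure genes had a median of 4.41 over 21 genes, led by the protocadherin gene Cdhr2 (7.06), the actin-bundling villin gene Vil1 (6.89), the motor gene Myo1a (6.80) and Eps8l3 (6.01).

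Genes of sugar transport and fructose metabolism had a median of 4.06 over 15 genes. Ketohexokinase, Khk (7.28, 7.55 and 7.85), which starts the breakdown of fructose, lay above the gluconeogenic enzyme gene Fbp1 (6.21) and the fructose transporter gene Slc2a5 (4.64, 4.99 and 6.06), which was highest on array 3. The glucose carriers were lower, Slc5a1 at 4.06 and Slc2a2 at 2.44. Amino acid carriers had a median of 2.35 over 15 genes, headed by the light chain Slc7a7 (4.91) and its heavy chain partner Slc3a2 (4.13), then Slc7a9 (3.81) and Slc6a19 (2.64). Iron genes included the ferritin genes Fth1 and Ftl1 (8.51), the heme and folate carrier gene Slc46a1 (6.60) and the iron exporter gene Slc40a1 (5.59). Slc11a2, the brush border iron importer, read 1.81, 0.29 and 0.67, and Cybrd1, the ferric reductase, 2.36, 1.44 and 0.26. In calcium absorption the calbindin gene S100g read 8.32, 8.40 and 6.97, lower on array 3, ahead of the claudin gene Cldn15 (5.33), the vitamin D receptor gene Vdr (4.37) and the calcium pump gene Atp2b1 (3.46). Trpv5, Calb1, Slc34a2 and Cyp24a1 of the same list were not well above background on any of the 3 arrays.

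In sterol transport the genes Abcg5 (7.59, 7.56 and 7.11) and Abcg8 (4.42, 4.33 and 3.68), whose products together return sterols to the lumen, and Npc1l1 (4.10), whose product takes them up, were the brightest of 12, with Nr1h3, an oxysterol receptor gene, at 3.07. Cholesterol synthesis was lower, with a median of 1.32 over 19 genes and, among its brighter members, Hmgcs1 (3.52), Sc5d (3.28) and Msmo1 (3.19). Fatty acid oxidation genes had a median of 3.47, with the thiolase gene Acaa2 (7.29) and the acyl-CoA dehydrogenase gene Acadvl (5.93) among its brighter members. Drug metabolism genes had a median of 4.58 over 46 genes, with the glutathione transferase gene Gsta2 (7.20), the carboxylesterase gene Ces2e (7.19), the epoxide hydrolase gene Ephx2 (6.96) and Cyp2d26 (6.75) on top. Nucleotide breakdown was led by adenosine deaminase, Ada (6.86, 7.07 and 6.01), with Pnp (5.21), Xdh (4.65) and Pnp2 (4.56), and vitamin A handling by the retinol binding protein gene Rbp2 (4.50, 4.56 and 5.83), Aldh1a1 (4.83), the regulator gene Isx (4.24) and Stra6 (4.23). Bile acid genes were present on the export side, with Abcc3 at 3.99, the bile acid receptor gene Nr1h4 at 3.54 and the basolateral transporter genes Slc51a at 3.42 and Slc51b at 2.99. The ileal importer gene Slc10a2 had a level of -3.30, and Fgf15, the bile acid-induced hormone gene of the ileum, was not above background on any array.

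Secretory cell genes differed widely in level. The 12 Paneth genes with a named probe all passed, with a median of 6.83 and 11 in the brightest 10%, led after the defensins by the lectin gene Itln1 at 8.89 ± 0.32 and the lysozyme gene Lyz1 at 8.55 ± 0.21. Goblet genes had a median of 5.76 over 15 genes. The lectin-like gene Zg16 read 8.43, 9.55 and 9.66, the disulfide isomerase gene Agr2 8.21, 8.33 and 7.93, Tff3 7.98, 8.08 and 8.09, Clca1 7.47, 7.40 and 7.04, and the gel-forming mucin gene Muc2 5.88, 5.71 and 5.69. Enteroendocrine genes were spread widely, with a median of 0.43 over 22 genes; hormones headed them, secretin, Sct, at 6.12, somatostatin, Sst, at 5.36, the granule protein gene Chgb at 5.17 and ghrelin, Ghrl, at 4.92, with cholecystokinin, Cck, at 4.63. Tuft cell genes had a median of 0.81 over 10 of 14 genes, with Plcg2, Ptgs1 and Ltc4s between 2.58 and 1.63. With no background filter the tuft median was -1.37. Stem cell genes had a median of 0.78 over 12 genes, from Slc12a2 (4.29) and Smoc2 (3.38) to the receptor gene Lgr5 (-0.70, -0.88 and -1.04). Cell cycle genes passed in 32 of 32 (all named genes: 15087 of 22905), with a median of 1.70 and Hmgb2 (4.89), Pcna (4.72), Mcm6 (3.98) and Birc5 (3.90) on top.

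Lists of the lamina propria and muscle wall had medians below those of Paneth and goblet genes. The medians ran from 3.22 for MHC class II genes to -2.02 for eosinophil and mast cell genes. Some of them, such as MHC class II and smooth muscle, lay above those of enteroendocrine, tuft and stem cell genes. For whole tissue, fewer cells of a type and less RNA per cell cannot be told apart. Plasma cell and IgA transport genes had a median of 1.82 over 10 genes, 3 of them in the brightest 10%. They were led by the epithelial receptor gene Pigr, the joining chain gene Jchain (7.88, 8.11 and 7.71) and Xbp1 (5.78). MHC class II genes had a median of 3.22, with H2-Ab1 (6.31), H2-Eb1 (6.09), Cd74 (5.30) and H2-Aa (3.41), and T cell and intraepithelial lymphocyte genes of 1.25 over 20 genes, with the granzyme gene Gzma (6.42), Ccl5 (5.07), Cd4 (4.80) and Cd7 (2.36). Macrophage and dendritic cell genes had a median of 1.07 and B cell genes of -0.08. Smooth muscle genes passed in 19 of 20, with a median of 2.59 and Myl9 (6.67), Csrp1 (6.05), Tagln (5.88) and the alpha-actin gene Acta2 (5.31, 5.54 and 5.74). Fibroblast and matrix genes had a median of 1.57, headed by decorin, Dcn (6.16). Neuron, glia and pacemaker genes had a median of -0.54, where Snap25 stood apart at 5.96 from Vip at 2.04, and the glial gene Gfap and the nitric oxide synthase gene Nos1 were not above background on any array. Eosinophil and mast cell genes were the dimmest list, with a median of -2.02 over 11 genes.

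Markers of the duodenum were bright, those of the ileum lay near the median of all features, and those of the colon were dim. Mucous genes shared with the stomach were in part bright. All 12 genes of the duodenum and proximal bowel passed, with a median of 4.52, and S100g, Lct, Sct and Slc40a1 were the brightest; Pdx1, the duodenal and pancreatic homeobox gene, read 0.04, -0.00 and -0.03. Ileum genes had a median of -0.02, near that of all features. They ranged from -3.30 for Slc10a2 to 3.42 for Slc51a, with the ileal lipid binding protein gene Fabp6 at -1.34, -1.53 and -3.10. Colon genes had a median of -1.47 over 7 of 9 genes, and the posterior homeobox gene Hoxb13 was not above background on any array. Of 13 genes listed for gastric acid and pepsinogen cells, 6 passed, with a median of -0.26. The brightest of the 6, at 9.58, was the gastrokine gene Gkn3, so the count is not of parietal and chief cell genes alone. The parietal and chief cell genes Atp4a, Atp4b and Lipf were not above background on any array. Sox2 and Barx1, regulators of the stomach, were likewise not above it. Surface and pyloric mucous genes were in part bright, Gkn2 at 7.39, 7.02 and 7.18 and Tff1 at 6.74, 6.88 and 7.75 beside Tff2 and Gkn3, while Muc5ac read 0.47, 0.36 and 0.51 and gastrin, Gast, -0.52, -0.99 and -0.77. Among regulators, Creb3l3 (6.13), Hnf4a (5.73), Klf4 (5.44) and Onecut2 (4.57) were the brightest of 21.

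**Figure D2:**
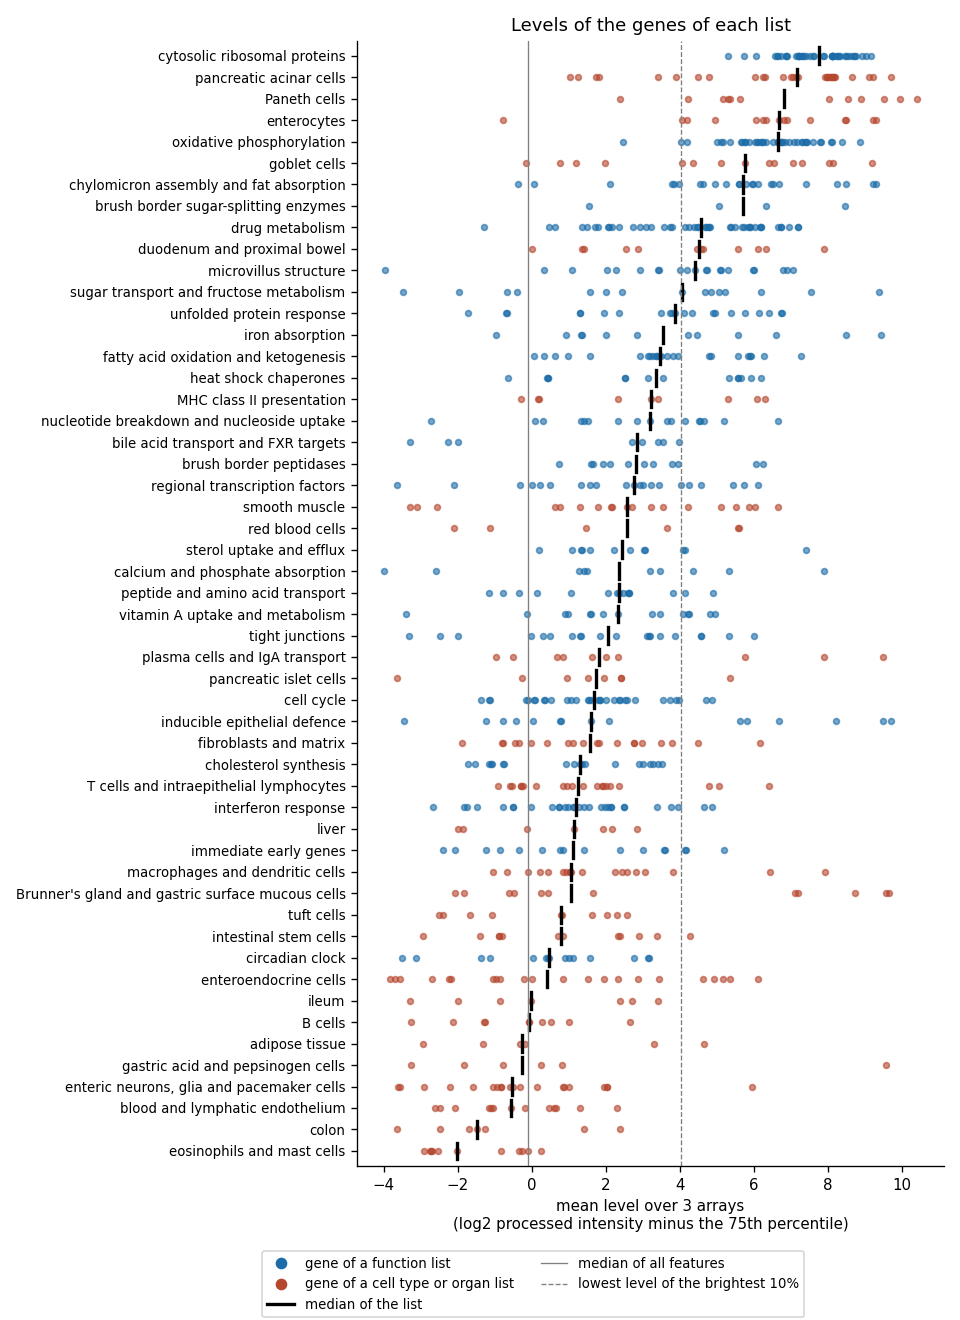
Mean level over the 3 wild-type vehicle arrays of each gene that passed the background filter, by list, with the median of each list as a black bar. Lists are ordered by median, from 7.76 for cytosolic ribosomal proteins to -2.02 for eosinophils and mast cells, against -0.10 for all features (grey line); genes can stand in more than 1 list.

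To see which isoforms were the bright ones, the brightest member of 51 gene families was set against the second. The order was the same on all 3 arrays in 48 families, but in only 4 did the gap exceed 4.94, the 90th percentile of the gap between 2 probes of a gene. Those were the Paneth lysozyme Lyz1 over the macrophage lysozyme Lyz2 (gap 7.70; Lyz2 read 1.19, 1.48 and -0.13), pyruvate kinase Pkm over the liver-type Pklr (6.96), lactate dehydrogenase Ldha over Ldhb (6.90) and the calcium pump Atp2b1 over Atp2b4 (6.08). Close below were Atp1b1 over Atp1b3 (4.92), Alpi over Akp3 (4.82) and the fatty acid transport protein Slc27a2 over Slc27a1 (4.75). Below these stood mitochondrial creatine kinase Ckmt1 over Ckb (3.95), Actb over Acta2 (3.72) and Fbp1 over Fbp2 (3.15). Gaps at or near the median probe gap of 2.23 included Slc2a5 over Slc2a2 (2.79), Hnf4a over Hnf4g (2.79), the transmembrane mucin Muc13 over Muc2 (2.69), Vil1 over Gsn (2.39), the sterol acyltransferase Soat2 over Soat1 (2.25) and Khk over Hkdc1 (2.12).

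Other families had no clear first member. Fabp1 lay 0.08 above Fabp2 on average and below it on array 3, Gata6 lay 0.47 above Gata4 with a reversed order on array 3, and the carbonic anhydrase Car2 lay 0.17 above Car9, also reversed on array 3. Apoa4 over Apoc2 (0.23), Slc5a1 over Slc5a11 (0.33), Krt8 over Krt20 (0.38) and Mt1 over Mt2 (0.57) were separated by far less than the median probe gap. In 9 families the first member changed when the dimmest probe stood for each gene, among them Slc15a4 over Slc15a1 (2.84), where Slc15a1 then came first, and Hnf4a over Hnf4g.

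**Figure D3:**
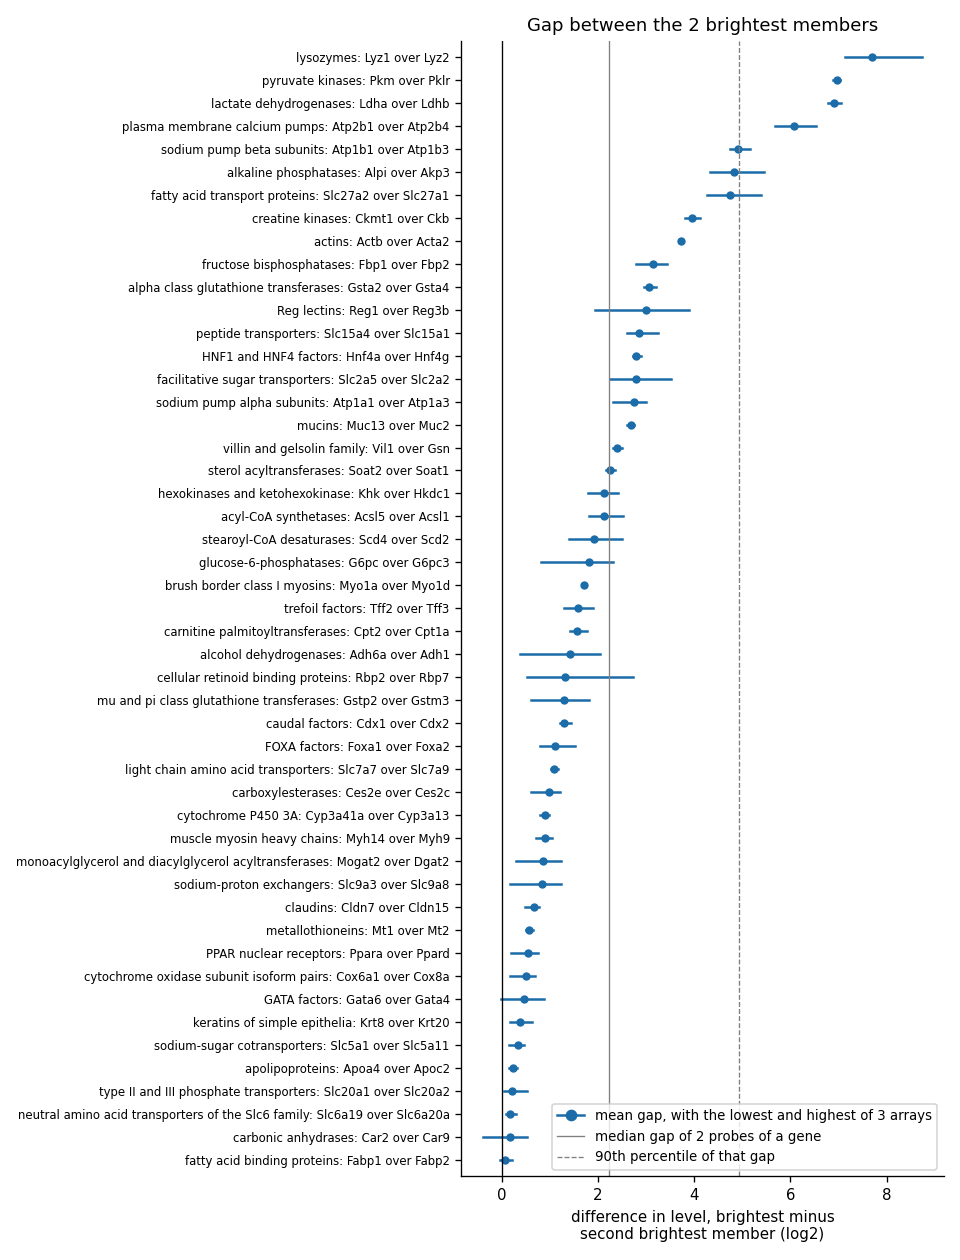
Difference in level between the brightest and the second brightest member of 49 gene families of the 51, as the mean (point) and the lowest and highest of the 3 wild-type vehicle arrays (line). The grey lines mark the median (2.23) and 90th percentile (4.94) of the gap between 2 probes of the same gene; 4 families lie beyond the latter and 3 have a line that crosses 0.

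Across features the 3 arrays were close, and a small share of genes set them apart. The correlation of levels across 24809 features, which are not independent replicates, was 0.986 between arrays 1 and 2, 0.975 between 1 and 3 and 0.988 between 2 and 3. The median SD of a feature was 0.19, against a median pooled SD of 0.31 within the other 3 groups. These are not like for like. Features were filtered and probes picked on the wild-type vehicle arrays alone, and the pooled SD rests on 9 arrays. Among the 100 brightest features the median level was 9.03, 9.29 and 9.61 on arrays 1 to 3. Of these 100, 93 were lowest on array 1 and 92 highest on array 3. The 100 dimmest rose in the same order, with medians of -4.68, -4.49 and -3.91. Medians of all features were -0.12, -0.09 and -0.10. The cause of these shifts was not tested. A range of at least 2 over the 3 arrays, a 4-fold span of light, was found in 315 features (1.27%), 191 of them named genes. Assigned to the array lying farther from the middle reading, 167 of the 315 were lower on array 1, 56 lower and 54 higher on array 3, 23 higher on array 1, 10 higher on array 2 and 5 lower on array 2.

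Pancreatic genes led the largest differences and were lower on array 1. Acinar cells, which make digestive enzymes, were represented by 30 genes, of which 28 had a range of at least 2 and were lower on array 1. Their mean was 2.83 on array 1 against 8.23 on array 2 and 8.32 on array 3. The elastase gene Cela2a read 5.77, 10.55 and 11.06, the chymotrypsinogen gene Ctrb1 3.79, 10.01 and 10.64, the carboxyl ester lipase gene Cel 1.89, 9.28 and 9.24 and the trypsinogen gene Prss2 2.76, 9.62 and 9.09. The exceptions were the trypsin inhibitor gene Spink1 and Reg1 (9.30, 9.75 and 10.08), which also belongs to the list of inducible defence genes. The insulin genes of the islets had the largest SDs of all named genes, Ins2 (SD 5.67) reading -4.10, 5.02 and 6.29 and Ins1 (SD 5.30) -3.67, 4.78 and 6.11. The lowest signal above background on array 1 was at -5.27, so the size of these SDs rests in part on dim readings. Other islet hormone genes differed less, Iapp reading -1.03, 1.55 and 2.38, glucagon, Gcg, 0.43, 1.11 and 3.04 and somatostatin, Sst, 4.81, 5.23 and 6.03; Gcg and Sst are also expressed by enteroendocrine cells. On the 9 arrays of the other groups Ins2 lay between 2.67 and 7.46 and Ctrb1 between 8.95 and 10.51, and 29 of the 30 acinar genes were lower on array 1 than on any of them, compared with 11.4% of all features. Acinar genes were thus lower on array 1 than in the rest of the series, while arrays 2 and 3 lay near the range of the other groups. Whether pieces of pancreas were in some samples was not tested.

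Rank depended on that array. Of the acinar genes 3 stood among the 100 brightest features with all 3 arrays and 18 without array 1. Without it Cela2a was the first named gene (10.80), ahead of Defa23 (10.67) and Defa24 (10.65), and Clps, the pancreatic colipase gene (10.33), and Ctrb1 (10.32) came next. The 250 bases before the start of Cela2a and Ctrb1 are shown because both genes were low on array 1 and bright on arrays 2 and 3; they were picked after values were seen. Capitals mark CACCTG and TTTCCC on either strand, the letters of the 2 boxes bound by the acinar factor PTF1.
Cela2a (chr4:141826006-141826255, minus strand): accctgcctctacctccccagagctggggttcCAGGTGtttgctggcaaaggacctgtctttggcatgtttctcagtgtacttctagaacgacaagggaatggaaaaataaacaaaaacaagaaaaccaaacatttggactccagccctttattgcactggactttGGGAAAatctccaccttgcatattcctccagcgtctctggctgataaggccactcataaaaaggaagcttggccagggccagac
Ctrb1 (chr8:111691011-111691260, minus strand): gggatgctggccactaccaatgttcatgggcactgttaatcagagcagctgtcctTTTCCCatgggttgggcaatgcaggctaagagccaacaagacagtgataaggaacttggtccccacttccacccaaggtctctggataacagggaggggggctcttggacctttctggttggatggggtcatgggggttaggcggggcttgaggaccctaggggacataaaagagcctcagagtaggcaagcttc
In Cela2a the CACCTG match began at -218 and the TTTCCC match at -84, both on the opposite strand, and in Ctrb1 a single TTTCCC began at -195. Over the 300-base windows, CACCTG was found in 16 of 26 acinar promoters (61.5%, against 20% of all promoters) and in 3 of 14 enterocyte promoters (21.4%), and TTTCCC in 11 of 26 (42.3%, against 25.2%), yet also in 16 of 29 ribosomal protein promoters (55.2%). TATAAA was found in 12 of the 26 acinar promoters (46.2%).

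**Figure D4:**
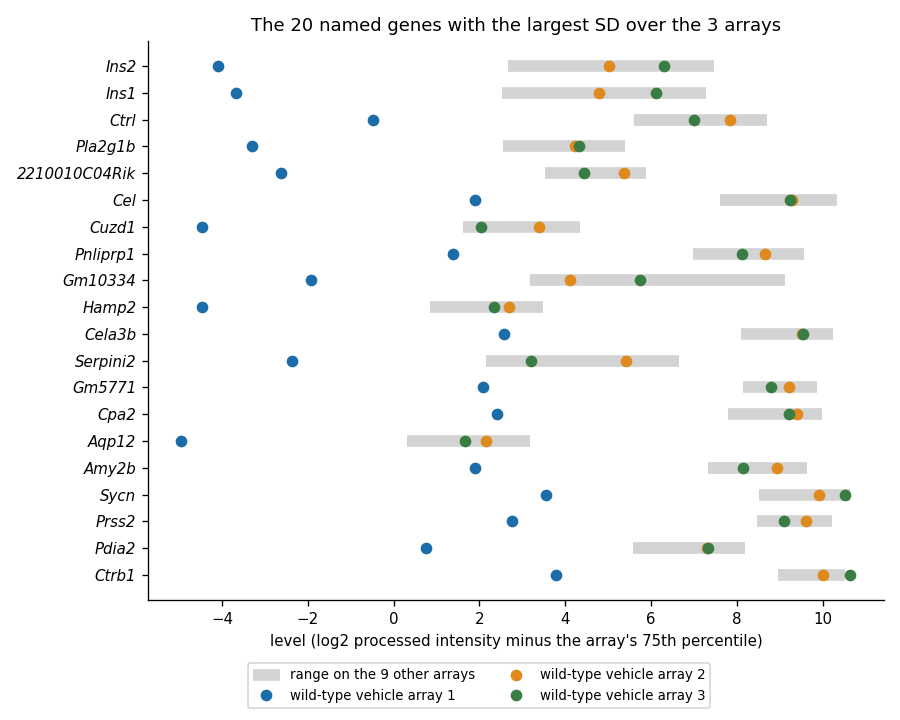
The 20 named genes with the largest SD over the 3 wild-type vehicle arrays, with the level on each array as a point and the range over the 9 arrays of the other groups as a grey bar. In all 20, array 1 lies below the bar, and arrays 2 and 3 lie inside it except for Ctrb1, whose array 3 value of 10.64 lies above a bar that ends at 10.51.

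The rest of the named genes of wide range, 130 of which stand in no list, fell into smaller groups, picked here after their values were seen. Most kallikrein genes of wide range were lower on array 1 together with the growth factor gene Egf, with Klk1 reading 4.94, 7.75 and 6.93 and Egf -3.61, -0.81 and -1.80. The adipocyte product genes Cfd (-2.96, 0.33 and 1.66) and Retn (-4.35, -2.78 and -1.68) were lower there too, although the lipid droplet gene Plin1 of the same list was not above background on any array. The inducible chaperone gene Hspa1a read -0.99, 0.51 and 1.70, and on the other 9 arrays it lay between -1.90 and -0.67, so that array 1 lay within that range and arrays 2 and 3 above it. The neutrophil-attracting chemokine gene Cxcl5 (-3.02, 1.19 and -2.14) and the neutrophil protein gene S100a9 (-4.21, 0.37 and -2.74) were higher on array 2, as was the water channel gene Aqp8 (-1.82, 0.20 and -2.16); for S100a9 and Aqp8 the array 2 value lay within the range of the other 9 arrays.

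Array 3 differed from arrays 1 and 2 in B cell, red blood cell, liver and clock genes. The B cell receptor gene Cd79b read 3.74, 3.16 and 1.05 and the complement receptor gene Cr2 2.12, 1.07 and -3.44; the B cell list averaged 0.61, 0.09 and -1.79, and 9 of its 10 genes were lowest on array 3, as were 41.2% of all features. T cell genes did not share this order, with list means of 1.35, 1.47 and 1.68 and 3 of 20 genes lowest on array 3. The follicle chemokine gene Cxcl13 (2.09, 1.63 and 0.01) and the receptor genes Ccr6 (1.44, 0.71 and -1.97) and Ccr7 (0.60, -0.22 and -2.23) had the order of the B cell genes. On the other 9 arrays Cd79b lay between 0.84 and 1.71, Cr2 between -3.27 and -1.70, Cxcl13 between -1.14 and 0.07, Ccr6 between -1.70 and -0.71 and Ccr7 between -2.29 and -1.53. For these 5 genes arrays 1 and 2 thus lay above every array of the other groups, while array 3 lay within their range or, for Cr2 and Ccr6, just below it. Haemoglobin genes were higher on that array, Hba-a1 reading 4.83, 4.97 and 7.04 and Hbb-bt 3.05, 3.00 and 4.95, together with the red cell haem synthesis gene Alas2 (-2.85, -2.89 and -0.57). Albumin, Alb, read -4.01, -3.47 and 1.94, haptoglobin, Hp, -3.31, -2.12 and 1.33 and the vitamin D binding protein gene Gc -5.06, -4.34 and -0.22, while the fibrinogen gene Fga was not above background on any array. Albumin lay between -4.33 and -1.75 on the other 9 arrays, below its value on array 3.

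Clock genes on array 3 stood apart in both directions. Dbp read 0.02, 0.46 and 4.25, Tef 2.54, 2.62 and 4.36, Per2 0.26, 0.52 and 2.22 and Per3 -3.74, -4.17 and -1.44, whereas Clock read 2.92, 2.96 and 2.40 and Arntl, its partner, 0.60, 0.49 and -0.97. In 9 of the 15 clock genes array 3 was above all 9 arrays of the other groups, compared with 7.81% of all features, and Dbp lay between -0.06 and 2.45 there. Also higher on array 3 were the fatty acid hydroxylase genes Cyp4a10 (-0.44, -0.22 and 1.68) and Cyp4a31 (-0.05, 0.59 and 2.38) and the efflux pump gene Abcb1a (1.76, 1.57 and 3.75), for which arrays 1 and 2 lay below and array 3 above every array of the other groups. On array 3 the ferric reductase gene Cybrd1 and neurotensin, Nts (-2.12, -0.82 and -3.63), were lower. The sources used here do not give the hour of collection, and its part in these values was not tested. Array 3 also had the lowest 75th percentile of intensity and lay on a slide with 4 arrays of the other groups, and the part of either was not tested.

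**Figure D5:**
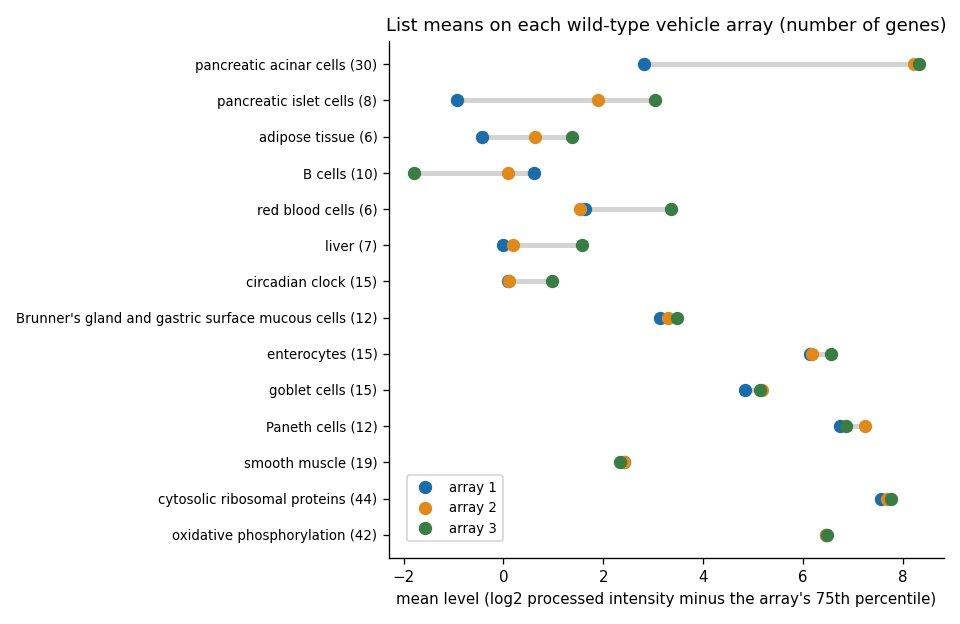
Mean level of the genes of 14 lists on each of the 3 wild-type vehicle arrays, with the number of genes in parentheses. Acinar genes separate array 1 (2.83) from the others (8.23 and 8.32) and B cell genes separate array 3 (-1.79), whereas oxidative phosphorylation genes lie at 6.46, 6.47 and 6.49.

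Mucous genes of the stomach type had smaller SDs here than within the other groups. Over 12 genes the median SD was 0.32 on the 3 arrays, above the 0.19 of all features, against a median pooled SD of 3.65 within the other 3 groups. Egf, of the same list, was the member with a range of at least 2 here. Gkn2 lay between 7.02 and 7.39 here and between -6.40 and 8.80 on the other 9 arrays, Tff1 between 6.74 and 7.75 here and between -0.67 and 9.14 there, and Gkn3 between 9.42 and 9.80 here and between 2.18 and 9.82 there. Dmbt1, a scavenger receptor gene of the same list, spanned 8.32 to 9.06 here and 8.67 to 9.34 there. The high levels of Gkn2, Tff1 and Gkn3 in the wild-type vehicle group were thus not shared by every array of the series. Genes and probes were filtered on these 3 arrays only and could fall below background on the other 9. The spreads are therefore not like for like, and no test was made of the difference.

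Against the rest of the series the profile was close to that of the other groups. Its mean levels correlated across features with those of wild type under IIAEK, knockout under vehicle and knockout under IIAEK at 0.993, 0.991 and 0.992, and 81, 80 and 81 of the 100 brightest features were shared. The other groups were ranked only over features and probes that passed the filter in wild type under vehicle. Leaving out wild-type vehicle array 1 alone kept 82 of the 100. In limma, with Benjamini-Hochberg adjustment over 26107 features, the contrast of the wild-type vehicle mean with the average of the other 3 group means called 2 features (0.00766%), both higher, with 583 higher and 549 lower at an unadjusted p under 0.05. Akp3 was higher by 4.33 (SE 0.30, adjusted p = 1.85e-04), against group means of 1.69 in wild type under IIAEK, -4.01 in knockout under vehicle and -4.65 in knockout under IIAEK. It was well above background on 2 of 3 and 1 of 3 arrays of the knockout groups, and with normexp background the difference was 2.68 (SE 0.26, adjusted p = 0.00368), so its size rests on how the dim signal is treated. The unnamed expressed sequence tag BE199935 was also called (adjusted p = 1.15e-05), with means of 0.80 and 0.53 in the wild-type groups. It was not well above background on any of the 6 knockout arrays, where it was at least 47.2-fold lower than in wild type under vehicle for knockout under vehicle and at least 41.6-fold lower for knockout under IIAEK. These bounds use the processed signal; with normexp, the fitted difference of the contrast was 2.02 (SE 0.16, adjusted p = 8.81e-04). In both, the means of the wild-type groups lay close together and those of the knockout groups lower.

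The 10 smallest p-values also held 8 features that did not pass. S1pr1, a lymphocyte egress receptor gene, differed by 0.97 (SE 0.17, adjusted p = 0.464), Banp by 1.24 and Alox15 by -1.46, each with the same adjusted p, and Alox15 was not well above background on any wild-type vehicle array. Utp14b (0.87) and the inositol carrier gene Slc5a3 (0.77) had an adjusted p of 0.577. The remaining 3 were unnamed features. Of the other alkaline phosphatase genes, Alppl2 differed by 1.65 (SE 0.37, adjusted p = 0.705), Alpi by 0.20 (SE 0.21, adjusted p = 0.987) and Alpl by 0.06 (SE 0.20, adjusted p = 0.991). Because the contrast averages 2 knockout groups and 1 treated group, it describes how this group stands in the series and does not separate genotype from peptide. Within slide 1, with wild-type vehicle arrays 1 and 2, 185 features were called, and without wild-type vehicle array 3 the count was 37. Nothing in the labels states that the mice of a group came from separate cages or litters, so p-values measure the spread between these arrays.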

How the data were processed

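RNA of the duodenum of 12 male mice was hybridised to 12 one-colour (Cy3) Agilent mouse arrays, and the 3 of wild type under vehicle are described. Per the file headers, Feature Extraction 10.7.3.1 wrote the authors' scanner files; the deposited processed intensity is linear, and the sources used here do not say which background was taken off. Flags deposited by the authors mark probes above background and outlier spots. The authors' deposited value table holds log2 values whose making is not stated. Subtracting from each level its median over the 12 arrays gave values that correlated with it at 0.999997 or more, so it holds log2 differences from a probe's median, not levels. Its column medians for the 3 arrays were -0.07, -0.08 and 0.13.

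Of 62976 spots an array, 3671 were controls, and non-uniform and outlier spots were left out, which removed 22 of 56605 probes; 0 spots were saturated. A probe's log2 spots were averaged, and each array's 75th percentile was taken off. Names came from a RefSeq table (GRCm38.p6) through accessions stripped of versions, which named 32978 of 56583 probes for 22905 genes; the headers give another build, so no coordinates of probes are printed. A gene is represented by its brightest probe among the 31253 well above background on all 3 arrays. The number of arrays, 3, limits the precision. No test was made of differences among the 3 arrays.

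The only test was limma 3.58.1 in R 4.3.3 (lmFit, eBayes with an intensity trend; 1 mean per group over 12 arrays; two-sided; adjusted p under 0.05), checked on simulated data; a probe entered if every array of some group showed it well above background, and the brightest over 12 arrays stood for a gene. The median SE was 0.198. Tables were made with Python 3.11.15 and pandas 2.3.3. The 52 lists and 51 families were written from textbook knowledge with earlier results of these data known, and 11 entries that belonged to another cell type or function were taken out of the lists after values were seen. The motifs were chosen likewise, the 2 of PTF1 and the promoters shown after values were seen. Named are the 30 brightest genes, the 20 of largest SD, up to 4 brightest genes of a list, the 2 brightest of a family, the alkaline phosphatase genes and the 10 smallest p-values of the fit; genes named beyond that were picked after their values were seen, and a few that the rule names are not reported here. Alternatives were quantile normalization, normexp background correction (offset 50, on the median signal, since the files used here carry no mean signal), the mean or the dimmest of a gene's probes, no background filter, the value table, slide and replicate number as blocks, single slides and leaving out each array.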

Additional observations from a re-analysis of the deposited data

How the results depend on the processing

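Of the 100 brightest features, 99 were kept under quantile normalization, 92 with normexp background, 77 with the mean of a gene's probes, 73 with its dimmest probe (chosen after seeing the data), 100 with no background filter and 82 to 97 when an array was left out. The brightest family member was the same gene in 51 of 51 families under quantile normalization and with no filter, 49 with normexp, 46 with the probe mean, 42 with the dimmest probe and 50 or 51 when an array was left out. Features with a range of at least 2 numbered 315 in the main setting and in the value table, 323 after quantile normalization, 309 with the probe mean, 158 with normexp, 1295 with no background filter and 60 to 266 when an array was left out, the 60 without array 1 and 169 without array 3. With an array left out the range spans 2 arrays, not 3, so those counts are not like for like with the 315. List medians moved by more than the SD between arrays in 32 of 52 lists with normexp, 30 with the probe mean, 19 with no filter, 3 under quantile normalization and 7, 11 and 15 without arrays 1, 2 and 3.

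The contrast called 2 features under quantile normalization, with no filter, with no intensity trend, with slide as a block and in the value table, 3 with normexp and with the probe mean, 185 within slide 1 and 8 within slide 2. Leaving out an array gave 2 to 37, the 37 without wild-type vehicle array 3 and 5 without wild-type IIAEK array 3. The fit with the replicate number as a block called 2. Deviations of same-numbered arrays correlated between -0.252 and 0.699, and 11 of 18 such pairs were above 0.1. For differently numbered arrays the range was -0.715 to 0.649, and 12 of 36 pairs were above 0.1. All arrays numbered 1 lay on slide 1 and all numbered 3 on slide 2, so number and slide overlap. Whether the numbers pair the samples was not tested. Alppl2 passed within slide 1 (2.04) and without wild-type IIAEK array 3 (1.86). The sign of Alpl turned with normexp (-0.008) and within slide 1 (-0.042), and leaving out an array gave -0.081 (without wild-type vehicle array 3) to 0.142, with -0.021 without knockout vehicle array 3. The cause was not tested. Below a level of about -4.2 to -5.3, set by the lowest signal above background on each array, these arrays give only a bound.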
